A study of Mus musculus with 18 samples.

Results

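Deficient lines of mouse induced pluripotent stem cells (iPSC), clones 8, A6 and B2, were each read in 2 states: as deficient iPSC with no further remark, and again with a label that remarks on some signs of differentiation. Both states carry the label deficient for Dnmt3a and Dnmt3b, so the comparison holds no genotype contrast. The clones were chosen by their labels alone. They filled 18 of the 36 channels of 18 Agilent 2-colour arrays, 6 deficient channels (2 per clone) and 12 differentiating channels (4 per clone). For a deficient clone, the Cy5 channel shared its array with mouse embryonic fibroblasts (MEF), and the Cy3 channel with V6.5, a mouse embryonic stem cell line. Each differentiating clone was read once in Cy5 and in Cy3 on its other 3 arrays, beside control iPSC lines 3, 4, 5 and 6, whose genotype the labels give only as control. All iPSC were grown on irradiated feeder fibroblasts and passaged on gelatin without new feeders before RNA was taken, so feeder RNA can remain. Each line is 1 clone, repeat channels of a clone may be technical, and fewer cells of a type cannot be told apart from less RNA per cell. The labels mark all 12 differentiating channels as left out of the publication's statistics. They do not describe what the signs were or how the differentiating cultures were handled.

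Dnmt3a and Dnmt3b are de novo DNA methyltransferases, and pluripotent cells can be kept without them. Pluripotent cells hold the transcription factors Pou5f1, Nanog and Sox2 high. In culture such cells can give rise to extraembryonic endoderm, in which Gata6, Sox17 and Foxa2 act as transcription factors. Parietal endoderm secretes laminin and type IV collagen as a basement membrane, and visceral endoderm takes up proteins through cubilin and megalin and degrades them in lysosomes.

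The 2 states were read on different scan days, the deficient clones on slides 1 and 2 and the differentiating clones on slides 3 to 5 (1 slide per clone), so state and scan day cannot be told apart. Differences are therefore given on 2 scales. The state difference is the mean log2 signal of a clone's 4 differentiating channels minus that of its 2 deficient channels, averaged over the 3 clones with its standard error (SE). The reference-adjusted difference sets each channel against its array partner, as (differentiating minus control) minus (deficient minus V6.5), less a dye term. The control and V6.5 RNAs are shared by the 3 clones, so their own spread is not in its SE, and any difference between V6.5 and control lines enters with opposite sign. For some genes V6.5 followed the clone on its array. Beside clones 8, B2 and A6, V6.5 read 7.4, 7.68 and 8.21 for Arg2, and the clones 7.18, 7.7 and 8.27. For Tcstv3 V6.5 read 9.54, 9.95 and 10.59, and the clones 10.03, 11.14 and 12.1. Nanog in V6.5 stayed at 13.95 to 13.99. What this does to the deficient minus V6.5 part was not tested. A day split is noted where all V6.5 and MEF channels lay on the same side of all 4 control line means as the deficient clones lay of the differentiating ones.

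An array stood apart and went against its label. On the array of differentiating clone 8 beside control line 5, the median SD of repeated spots was 0.528 log2 units, against 0.0999 to 0.202 on the other 17 arrays. Its clone 8 channel reached a correlation across genes of at most 0.957 with any other channel of these clones, while the other channels of 1 clone and state correlated at 0.996 or more. Its channel labelled control line 5 read 13.39 for Lama1, a laminin chain of endoderm, against 9.07 and 9.08 for the same line on its other arrays. Only 0.375% of genes lay over 1 log2 unit apart between its channels, against 0.969% to 4.97% on the other 11 arrays of that day. It is kept below because the comparison takes all 4 channels, and values without it are given for the overall counts, the markers, the endoderm and cholesterol lists and the methyltransferases. Between 72.32% and 74.91% of spots were well above background in deficient channels and between 75.58% and 90.34% in differentiating ones.

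By the state difference, the clones with signs of differentiation had more RNA of endoderm transcription factors, basement membrane proteins and visceral endoderm genes. They also had more of parietal endoderm genes and cholesterol enzymes, and less of Nanog, of Nodal and Wnt pathway genes and of germline genes. Not all of this held on the reference-adjusted scale, where Nanog differed by -0.27 (adjusted p = 0.341). On that scale the germline median was 0.134, against -0.021 over all genes. Of 23755 genes tested for the state difference, 4466 rose (18.8%) and 3111 fell (13.1%) at an adjusted p under 0.05. Counts in the gene lists below are read against these shares. The difference was at least 1 log2 unit for 197 of the rises and 185 of the falls. The median difference over all genes was 0.071 and the median SE 0.0841. Without normalization between arrays that median was -0.421 and no gene was called (7071 had an unadjusted p under 0.05), so list medians are read against it: there the endoderm transcription factors stood at -0.173 and the basement membrane list at -0.132. Without the array that stood apart, 5769 genes rose (24.3%) and 3646 fell (15.3%), and 7300 genes were called in both fits. The counts leaned on single clones: without A6, only 14 genes were called (13 higher), without B2 3319, and without clone 8 9914.

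All 5 genes that mark the change, Lama1, Col4a1, Gata6, Clu and Ctsh, rose in all 3 clones. These markers were set with earlier results of these data known, so their rise describes the change and does not test it. Lama1 encodes the laminin alpha 1 chain of the embryonic basement membrane (probe on chromosome 17, 66089045 to 66090007, mouse build mm7 as in the files). In the deficient state it read 11.26 and 11.41 in clone 8, 9.33 and 9.33 in A6, and 9.44 and 9.5 in B2. In the 12 differentiating channels its lowest, median and highest values were 11.19, 11.79 and 13.61. Every clone was higher with signs of differentiation, but deficient clone 8 lay at the level of differentiating B2. The state difference was 2.15 ± 0.117 (adjusted p = 0.00635), a 4.43-fold rise, and the reference-adjusted difference was 1.88 (adjusted p = 0.0254).

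Col4a1, a chain of type IV collagen (probe on chromosome 8, 11167020 to 11167079, mm7), read from 9.79 to 12.25 in deficient channels with a median of 10.53. In differentiating channels it read from 11.94 to 14.7 with a median of 12.56. Channels of the 2 states overlapped only through clone 8, whose deficient values of 12.25 and 12.12 lay at the level of differentiating B2 (11.94 to 12.13). Its state difference was 2.09 ± 0.174 (adjusted p = 0.00694) and its reference-adjusted difference 1.17 (adjusted p = 0.0309). MEF read 14.14 to 14.23, near the level of differentiating clone 8.

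Gata6, the transcription factor that specifies primitive endoderm, read 11.06 and 11.03 in deficient clone 8, 9.19 and 9.19 in A6, and 8.84 and 8.89 in B2. Differentiating channels ran from 10.58 to 13.21, and the array that stood apart gave the lowest clone 8 value, 11.54, against 13.07 to 13.21 on the other 3. The state difference was 1.91 ± 0.102 (adjusted p = 0.00635), and 2.04 without that array. Of the other 2 Gata6 probes, 1 had the same direction, and the mean over all its probes differed by 0.72.

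Clu, the secreted chaperone clusterin (probe on chromosome 14, 60841778 to 60841837, mm7), read 10.34 to 10.79 in deficient channels and 13.21 to 14.36 in differentiating ones, with no overlap. It rose by 3.22 ± 0.241 (adjusted p = 0.0069). Clu also had a day split, with V6.5 at 10.41 to 10.85 below the control line means, and the reference-adjusted difference was smaller, 1.9 (adjusted p = 0.0168). Ctsh, the lysosomal protease cathepsin H (probe on chromosome 9, 89705043 to 89705102, mm7), read 9.57 to 11.47 in deficient and 12.74 to 14.84 in differentiating channels, again with no overlap. It rose by 3.11 ± 0.253 (adjusted p = 0.00694), with a reference-adjusted difference of 2.23 (adjusted p = 0.0241). Without the array that stood apart, the state difference was 2.17 for Lama1, 2.16 for Col4a1, 3.26 for Clu and 3.28 for Ctsh.

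**Figure D1:**
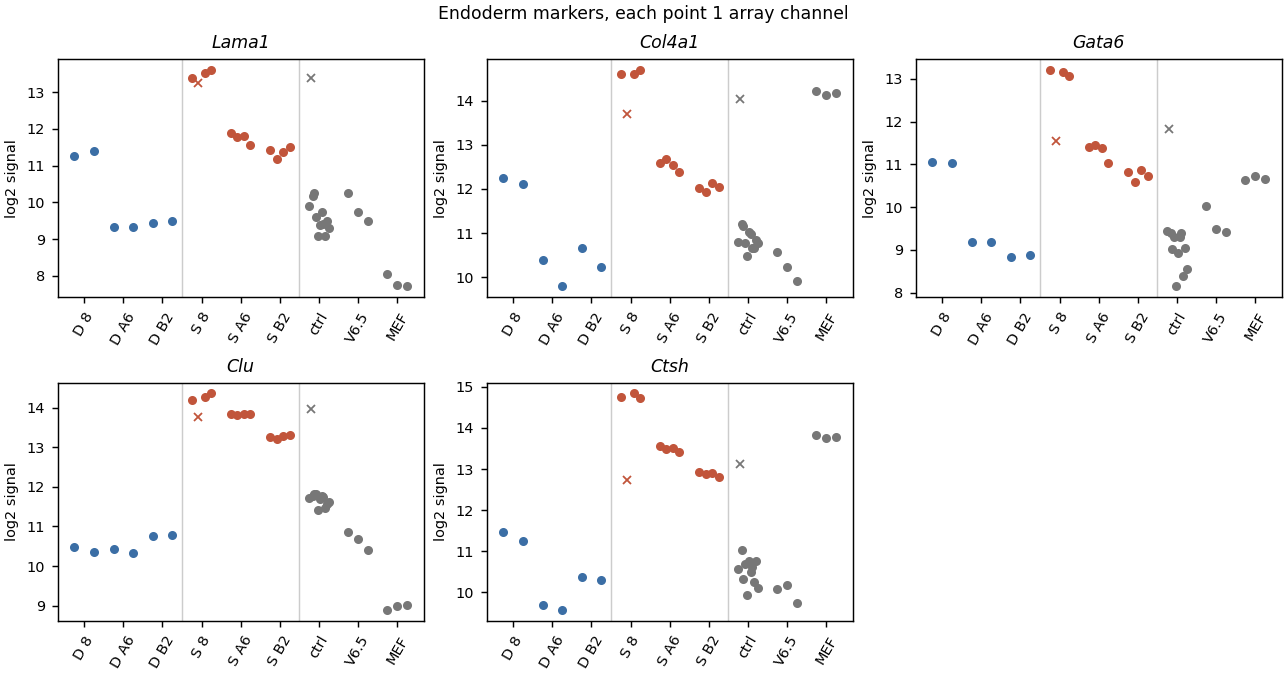
Log2 signal of 5 endoderm markers in every array channel, for deficient clones (D), the same clones with signs of differentiation (S), control lines (ctrl), V6.5 and MEF. Crosses are the channels of the array that stood apart. Apart from its cross, differentiating clone 8 sits highest for all 5 genes, and the control line 5 cross lies above every other control point.

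Endoderm transcription factors, a list that holds the marker Gata6, rose in 7 of 16 tested, while 1 fell and 8 did not pass. The list median was 0.357 against 0.071 over all genes. Foxa2, a forkhead factor of endoderm, read 9.88 and 9.84 in deficient clone 8, 7.77 and 7.82 in A6, and 8.53 and 8.55 in B2. Its differentiating channels ran from 10.72 to 12.83 around a median of 11.23, with no overlap between states, and the rise was 2.78 ± 0.243 (adjusted p = 0.00694). Sox17, an endoderm factor of the Sox family, ran from 8.06 to 10.01 and then from 9.89 to 12.42, overlapping through deficient clone 8, and rose by 2.16 ± 0.0944 (adjusted p = 0.00635). Among the smaller rises were Sox7 at 0.58 and Gata4 at 0.38, the latter with a day split. Eomes, a T-box factor of trophoblast and early endoderm, fell by 0.66. Hnf4a, a factor of mature visceral endoderm, differed by 0.20 and Hhex by 0.35, which did not pass. In the reference-adjusted values 5 of the 16 rose (8% of all genes did) and 1 fell (9.13% of all genes), with a median of 0.091 against -0.021 over all genes.

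Basement membrane components rose in 8 of 17 tested and fell in none, with a median of 0.35. Besides Lama1 and Col4a1, Lamb1, the laminin beta 1 chain, ran from 12.02 to 12.78 in deficient and from 13.53 to 15.57 in differentiating channels, and rose by 1.94 ± 0.19 (adjusted p = 0.00746). Lamc1, the gamma 1 chain that completes this laminin, rose by 1.36 ± 0.116, Col4a2 by 1.4, the collagen-binding protein Sparc by 1.39 and Nid1, which links laminin to collagen IV, by 0.52. All 3 chains of laminin 111, encoded by Lama1, Lamb1 and Lamc1, were thus called, in the reference-adjusted values too, at 1.88, 1.35 and 1.51. Col4a3, Col4a4 and Col4a5, the chains of other type IV collagens, differed by 0.20, -0.02 and 0.09 and did not pass. Among the enzymes that process collagen, 5 of 20 rose and 4 fell, where 18.8% of all genes rose and 13.1% fell. Serpinh1, the collagen chaperone, rose by 1.66, and the prolyl hydroxylases P4ha2 and P4ha1 by 1.18 and 1.04. Loxl1 and Lox, which crosslink fibrils, fell by 0.92 and 0.56. Cy3 channels alone leave out the deficient channels beside MEF. On these, 6 of the 20 rose (12.3% of all genes did) and 1 fell (12%).

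Genes of visceral endoderm uptake and secretion rose in 16 of 30 tested and fell in none, with a median of 0.63. Cubn encodes cubilin and Amn encodes amnionless, the partners of an uptake receptor. Cubn read 13.09 and 12.76 in deficient clone 8 but 8.84 to 9.3 in A6 and B2, and 11.39 to 15.11 in differentiating channels. It rose by 2.4 ± 0.399 (adjusted p = 0.0152), Amn by 1.98 ± 0.163 and the endocytic adaptor Dab2 by 1.81 ± 0.202. Lrp2, the megalin that works with cubilin, differed by 0.81 and did not pass. The lysosomal proteases Lgmn, Ctsl, Ctsb, Ctsc and Ctsd rose by 1.96, 1.35, 0.94, 0.89 and 0.61, beside Ctsh. For Ctsb and for Ctsd, the gene's 1 other probe had the opposite direction. Carriers of the yolk sac that mark mature visceral endoderm did not pass: Afp differed by 0.00, Apoa1 by 0.14, Apob by -0.12 and Trf by -0.09, while the retinol carrier Rbp4 rose by 1.00 and Apoe by 0.49. In reference-adjusted values 13 of the 30 rose (8% of all genes did) and 1 fell (9.13%), with a median of 0.486. Of the 16 rises, 9 were called there too. Cubn at 2.65 (adjusted p = 0.0619), Ctsl at 0.98 (adjusted p = 0.0602), Ctsc at 0.45 and Apoe at 0.58 did not pass. Gpc3 rose by 0.87 but was called lower there, at -0.37 (adjusted p = 0.025).

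Parietal endoderm genes rose in 8 of 13 tested and fell in none, with a median of 0.578. Srgn, the proteoglycan serglycin, differed widely among clones, at 13.88 and 13.87 in deficient clone 8 and 9.9 to 10.95 in A6 and B2. Its differentiating channels ran from 13.16 to 16.38, and it rose by 2.9 ± 0.404 (adjusted p = 0.0113). The reference-adjusted difference of 3.2 did not pass (adjusted p = 0.0633). Pdgfra, a receptor kept by primitive endoderm, rose by 1.57 ± 0.0986, Pth1r, the parathyroid hormone receptor of parietal endoderm, by 1.36 ± 0.262, and Plat, the tissue plasminogen activator, by 1.15 ± 0.19. After reference adjustment 4 of the 13 were higher (8% of all genes were) and 2 lower (9.13%). The latter were Fst at -0.59 and Vim at -0.47, and Plat stood at 0.14 (adjusted p = 0.681). Stra6, Thbd and Fst differed by -0.09, 0.46 and 0.22 and did not pass. The parietal list shares Lamb1 and Sparc with the basement membrane list and Sox7 with the transcription factors, so the 3 counts are not independent. The markers that define the change are list members as well. Gata6 is counted among the transcription factors, Lama1 and Col4a1 in the basement membrane list, and Clu and Ctsh in the visceral list. Without the array that stood apart, 8 of 16 transcription factors rose and 1 fell, 9 of 17 basement membrane genes rose and 1 fell, 17 of 30 visceral genes rose, and 8 of 13 parietal genes rose.

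The clones differed in the deficient state. Clone 8 had the highest deficient value for 7 of the 8 basement membrane genes that rose, 12 of the 16 visceral, 7 of the 8 parietal genes and 5 of the 7 transcription factors. Of all genes called higher, 46.1% had clone 8 highest in the deficient state, and of all genes tested 37%. In the differentiating state the order 8, A6, B2 held for 7 of 8, 11 of 16, 7 of 8 and 6 of 7, against 46.2% of all genes called higher and 25.3% of all tested. Hkdc1, a hexokinase-domain gene and the largest rise, showed this: its clone means were 10.6, 8.1 and 8.97 in the deficient state and 13.67, 12.6 and 12.01 with signs, for clones 8, A6 and B2. A fit that left out the pairing by clone did not call Lama1 (adjusted p = 0.0605), Col4a1 (adjusted p = 0.0767) or Gata6 (adjusted p = 0.0807).

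**Figure D2:**
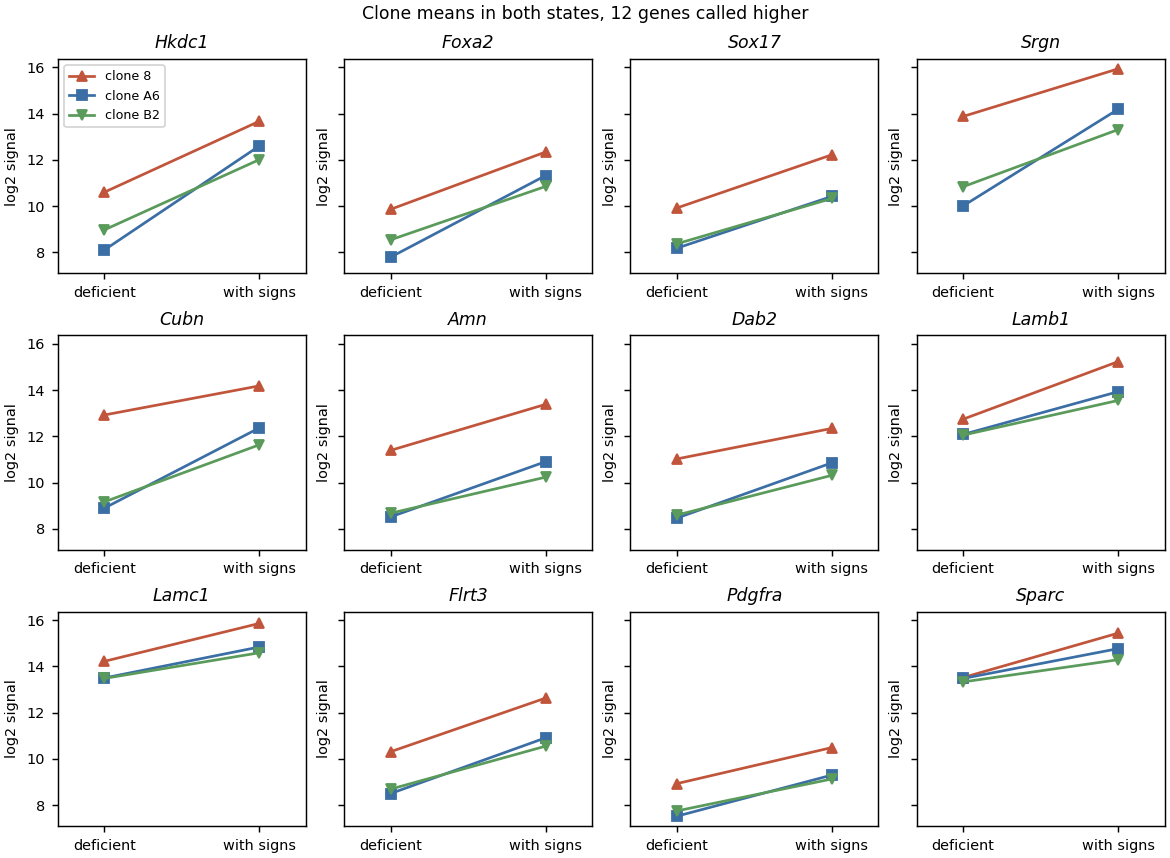
Mean log2 signal of each clone in the deficient state (left in each panel) and with signs of differentiation (right), for 12 genes called higher; each line joins the states of 1 clone. Clone 8 is highest in the deficient state for all 12 genes, with Cubn at 12.92 against 8.89 in A6 and 9.16 in B2. Every line rises from left to right.

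Among genes whose clone means in the 2 states did not overlap, the largest rises were Hkdc1, Clu, Ctsh, Slco2a1, Foxa2, Krt8, Hs3st1, Clic6, St3gal1 and Flrt3. Hkdc1 (probe on chromosome 10, 61901912 to 61901971, mm7) ran from 8.05 to 10.74 in deficient and from 11.58 to 14.58 in differentiating channels, with no overlap. It rose by 3.54 ± 0.303 (adjusted p = 0.00694) and its reference-adjusted difference was 2.81 (adjusted p = 0.0242). Slco2a1, the prostaglandin transporter, ran from 8.77 to 9.61 and then from 11.55 to 13.25, and rose by 3.09 ± 0.257. The heparan sulfate enzyme Hs3st1 rose by 2.45, the chloride channel gene Clic6 by 2.37, the sialyltransferase St3gal1 by 2.23 and Flrt3, a membrane protein with leucine-rich repeats, by 2.19. Clu, Krt8 and Clic6 had a day split and the other 7 did not. Of these 10 genes, only Krt8 had a reference-adjusted difference below 0.

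Enzymes of cholesterol synthesis and uptake rose in 18 of 25 tested and fell in none, with a median of 0.571. Lss, which closes the sterol rings, ran from 9.8 to 10.12 in deficient and from 11.14 to 11.6 in differentiating channels, and rose by 1.42 ± 0.0723 (adjusted p = 0.00635). Dhcr7, the last enzyme of the pathway to cholesterol, ran from 11.99 to 12.46 and then from 13.5 to 13.93, with no overlap, and rose by 1.41 ± 0.0835 (adjusted p = 0.00635). Srebf2, a transcription factor that regulates the pathway, rose by 0.61. In reference-adjusted values 9 of the 25 rose (8% of all genes did) and none fell (9.13%). The median was smaller there, 0.105 against -0.021 over all genes, with Lss at 1.04 and Dhcr7 at 0.52. By the state difference without the array that stood apart, 19 rose and none fell. Genes of the endoplasmic reticulum rose in 18 of 39 and fell in 1, with a median of 0.301, but that direction was not kept on the scanner software's processed signals, where 4 rose, 7 fell and the median was -0.009. In the main values the stress factor Ddit3 rose by 1.25, the co-chaperone Dnajc3 by 0.97 and the disulfide isomerase Pdia3 by 0.84.

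The promoters of 1 called gene of each of 3 groups are shown so that the groups can be seen beside their sequence: Sparc (basement membrane), Lgmn (lysosome) and Dhcr7 (cholesterol). Each run is the 250 bases before the start in RefSeq on GRCm38.p6, 5′ to 3′ on the gene's strand, and lies outside any annotated gene. These genes were picked for having such an entry. None was held for Lama1, Clu or Ctsh, Col4a1 had an entry that is not shown, and Gata6 was not looked for. Capitals mark the GC box GGGCGG and the CCAAT box CCAAT, on either strand.
Sparc, chr11:55420081-55420330, minus strand: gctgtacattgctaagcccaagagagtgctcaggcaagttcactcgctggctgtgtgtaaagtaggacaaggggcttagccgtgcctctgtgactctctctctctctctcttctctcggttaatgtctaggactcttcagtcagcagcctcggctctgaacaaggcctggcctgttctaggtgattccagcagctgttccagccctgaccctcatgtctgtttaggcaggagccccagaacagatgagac
Lgmn, chr12:102439729-102439978, minus strand: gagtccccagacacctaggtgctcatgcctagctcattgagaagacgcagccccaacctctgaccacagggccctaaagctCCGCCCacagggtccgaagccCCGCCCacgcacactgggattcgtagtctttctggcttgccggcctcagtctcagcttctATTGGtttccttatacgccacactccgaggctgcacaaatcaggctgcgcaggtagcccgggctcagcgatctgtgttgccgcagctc
Dhcr7, chr7:143822917-143823166, plus strand: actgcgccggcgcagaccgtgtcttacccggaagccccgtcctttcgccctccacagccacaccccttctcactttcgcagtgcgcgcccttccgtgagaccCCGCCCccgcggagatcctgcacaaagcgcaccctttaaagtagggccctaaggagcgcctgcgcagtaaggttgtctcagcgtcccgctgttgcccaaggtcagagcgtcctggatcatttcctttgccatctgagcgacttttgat
Lgmn held 2 GC boxes and 1 CCAAT box, all on the opposite strand, Dhcr7 held 1 GC box, and Sparc held neither. GGGCGG stood in 32.7% and CCAAT in 33.8% of all 32851 promoter windows of this length. The GATA letters AGATAA and TGATAA, found in 16.6% of windows, and the E-box CACGTG, found in 6.02%, were in none of the 3.

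**Figure D3:**
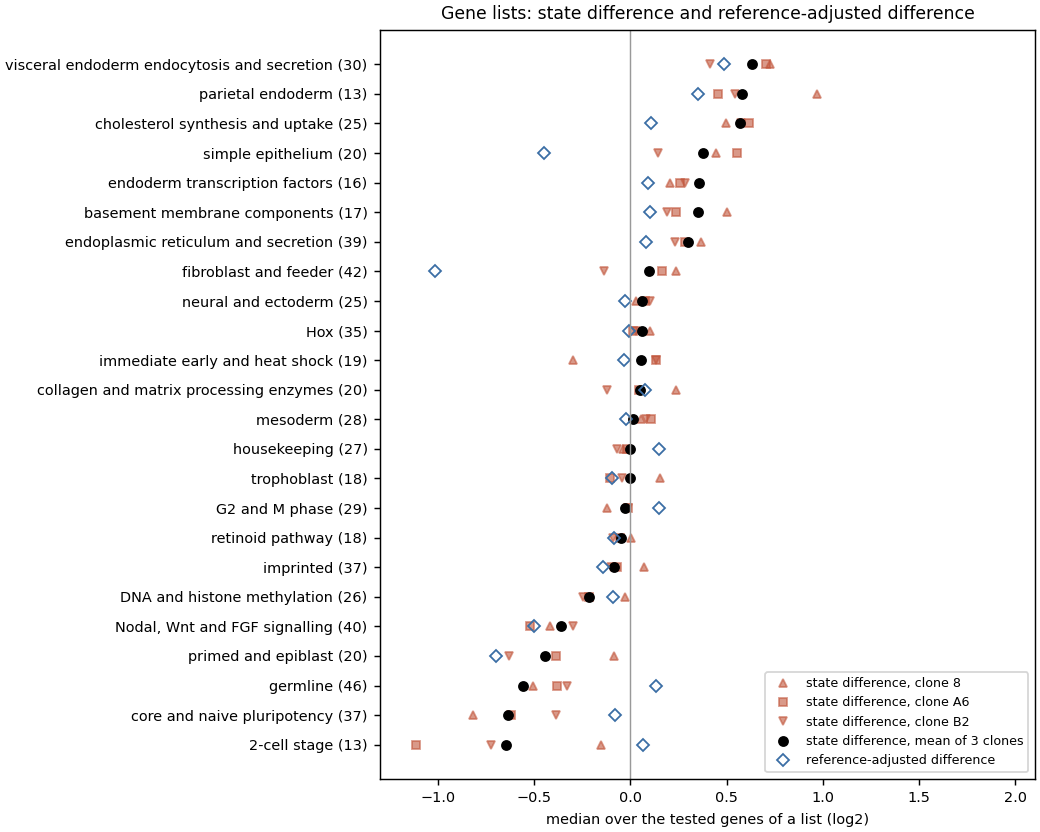
Median log2 difference over the tested genes of each gene list, whose number is in brackets, for the mean of the clones (black), each clone (red symbols) and the reference-adjusted difference (open diamonds). Visceral endoderm, parietal endoderm and cholesterol lists lie highest at 0.63, 0.578 and 0.571. The simple epithelium and fibroblast diamonds lie far to the left of their black points, at -0.45 and -1.018.

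By the state difference, the core pluripotency genes Nanog, Sox2 and Pou5f1 were lower with signs of differentiation but remained far above fibroblasts. Of 37 core and naive pluripotency genes tested, 21 fell, 3 rose and 13 did not pass, with a median of -0.637. Nanog read 13.43 to 13.8 in deficient channels and 11.23 to 12.88 in differentiating ones, with no overlap, and fell by 1.6 ± 0.154 on the log2 scale (adjusted p = 0.0074). Sox2 ran from 14.14 to 14.36 and then from 13.2 to 13.76, and fell by 0.7 ± 0.125 (adjusted p = 0.0172). Pou5f1 ran from 14.75 to 15.04 and then from 14.41 to 14.66, and fell by 0.37 ± 0.0713 (adjusted p = 0.0201). In MEF Nanog read at most 9.36, Sox2 7.16 and Pou5f1 10.88. Tbx3 and Pecam1 fell by 1.11 and 1.05, though the other Tbx3 probe had the opposite direction, whereas Esrrb, Klf2 and Dppa5a differed by -0.11, -0.10 and -0.05 and did not pass. Zfp42, at -0.27 (adjusted p = 0.0746), did not pass either. The risers were Stat3, Socs3 and Lifr, at 0.84, 0.69 and 0.45, which act in the response to the cytokine LIF.

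Control lines lay below V6.5 for the same genes. Nanog read 13.95 to 13.99 in V6.5 and 12.36 to 13.05 in control lines, and Sox2 14.31 to 14.4 against 13.31 to 13.69. Reference-adjusted differences were -0.27 for Nanog (adjusted p = 0.341), 0.19 for Sox2 (adjusted p = 0.425) and 0.17 for Pou5f1 (adjusted p = 0.095). Tbx3 was called in the opposite direction at 1.23 (adjusted p = 0.0437), and Zfp42 was called higher at 2.75 (adjusted p = 0.014). The list median was -0.078, with 7 of 37 genes lower (9.13% of all genes were) and 4 higher (8%). Which part of the fall goes with state and which with scan day cannot be told apart.

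**Figure D4:**
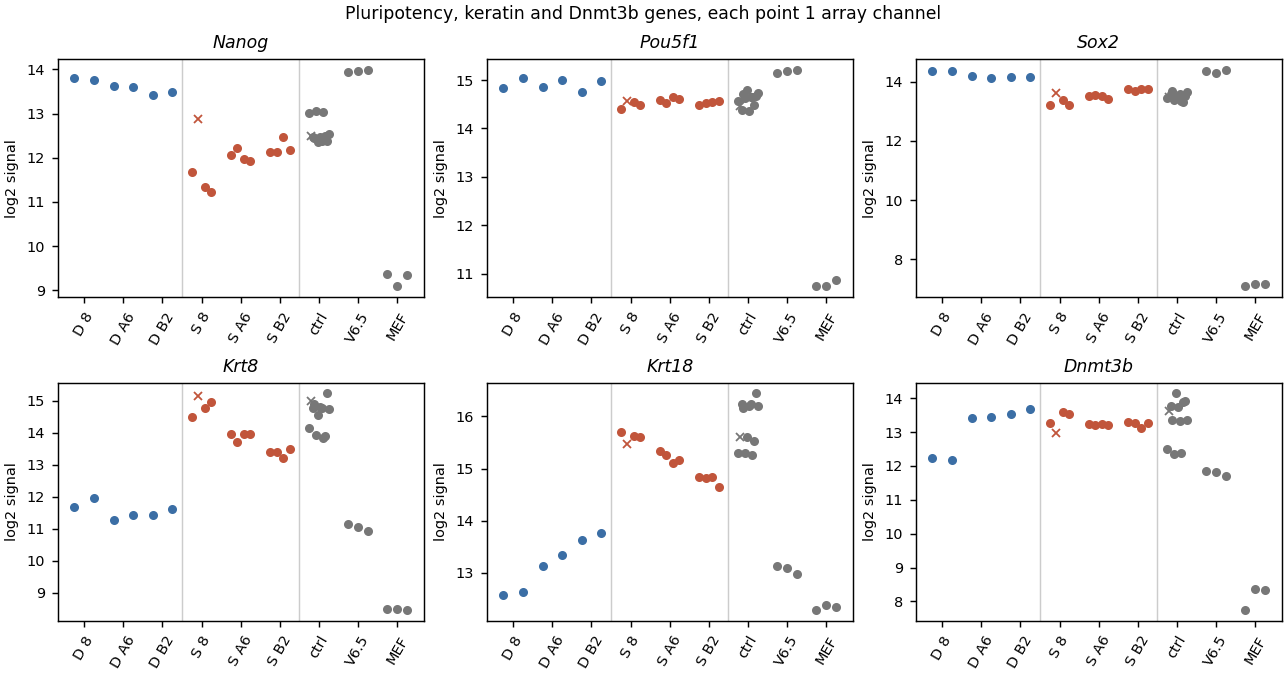
Log2 signal of Nanog, Pou5f1, Sox2, Krt8, Krt18 and Dnmt3b in every array channel, with groups as D (deficient), S (signs of differentiation), control (ctrl), V6.5 and MEF; crosses mark the array that stood apart. For Krt8 and Krt18 the control lines lie with or above the differentiating clones, and V6.5 lies near the deficient ones.

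Signalling genes of the early embryo fell more often than they rose. Of 40 Nodal, Wnt and FGF genes tested, 18 fell, 5 rose and 17 did not pass, with a median of -0.363. Lef1, a transcription factor at the end of the Wnt pathway, ran from 12 to 13.29 in deficient and from 10.2 to 12.01 in differentiating channels, overlapping only between deficient clone 8 and differentiating B2, and fell by 1.12 ± 0.0692 (adjusted p = 0.00635). Its reference-adjusted difference was -1.78 (adjusted p = 0.014). Notum, a secreted Wnt inhibitor, fell by 1.24 ± 0.112 and the BMP targets Id3 and Id1 by 1.03 and 0.97. Nodal itself and its inhibitors Lefty1 and Lefty2 fell by 0.82, 1.04 and 0.98. Fgf5, a ligand of primed cells, read from 8.63 in clone 8 to 11.49 in B2 in deficient channels. In differentiating channels it read from 7.9 to 9.66, and it fell by 1.19 ± 0.3 (adjusted p = 0.0374). Fgfr4 rose by 0.98 and the Wnt inhibitor Dkk1 by 0.71. In reference-adjusted values 17 of the 40 fell (9.13% of all genes did) and 1 rose (8%), with a median of -0.499. V6.5 and MEF lay below every control line mean for Fgf5, Lefty1 and Lefty2. Of 20 primed and epiblast genes, 10 fell and 3 rose, with a median of -0.445; Zic2 fell by 1.14.

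Germline and early cleavage genes were lower with signs of differentiation. Of 46 germline genes tested, 20 fell and 3 rose, with a median of -0.557. Dazl, an RNA-binding protein of germ cells, ran from 11.54 to 12.58 in deficient channels, and read 8.67 to 9.59 in differentiating clone 8 and 10.5 to 11.42 in A6 and B2. It fell by 1.81 ± 0.256 (adjusted p = 0.0116). Sycp1 and Tex11, proteins of meiosis, fell by 1.39 and 1.09. Here the reference-adjusted values went the other way, with 9 of 46 higher (8% of all genes were), 3 lower (9.13%) and a median of 0.134. Dazl itself stood at 1.07 (adjusted p = 0.0443), with V6.5 at 11.66 to 11.85 and control lines at 8.05 to 10.54. Of 13 genes of the 2-cell stage, 5 fell and none rose. Zscan4c, whose probe can share signal with near-identical copies, read 10.55 to 12.67 and then 8.82 to 10.49, and fell by 1.98 ± 0.399 (adjusted p = 0.0223), with a reference-adjusted difference of 0.01 (adjusted p = 0.981).

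Simple epithelial genes differed between the 2 kinds of value. Krt8, a keratin of simple epithelia, ran from 11.27 to 11.96 in deficient and from 13.21 to 15.16 in differentiating channels, and rose by 2.49 ± 0.219 (adjusted p = 0.00694). Control lines read 13.83 to 15.23 and V6.5 10.95 to 11.16, and the reference-adjusted difference was -0.97 (adjusted p = 0.0544). Its partner Krt18 rose by 2.02 ± 0.347 (adjusted p = 0.016), with a reference-adjusted difference of -0.8 (adjusted p = 0.282). Of 20 genes of this list, 9 rose and 4 fell, and 6 of the 9 had a day split. The list median was 0.376, and -0.45 after reference adjustment, with 5 genes lower (9.13% of all genes were) and 1 higher (8%).

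Over all genes, 2024 of the 4466 called rises (45.3%) had the day split, against 17.6% of all genes tested. Of the 3111 falls, 566 (18.2%) had it, against 5.88%. Among differences of at least 1 log2 unit the split marked 42 of 197 rises and 30 of 185 falls. The large falls of Sltm, an RNA-binding protein, and of Malat1, a nuclear long noncoding RNA, were of this kind. Sltm fell by 2.12 ± 0.108 and Malat1 by 2.05 ± 0.24. Malat1 read 12.39 to 13.41 in deficient channels, 13.3 to 13.38 in V6.5 and 14.68 to 14.77 in MEF, but 10.4 to 11.13 in differentiating channels and 10.2 to 11.68 in control lines. Gigyf2 and Thoc2 fell by 1.74 and 1.73 with the same split, although 3 of the 4 other Gigyf2 probes had the opposite direction.

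The pseudogene Sycp1-ps1, at -1.83, was left out of the ranking. The falls without the split were led by Calcoco2, a receptor for selective autophagy (probe on chromosome 11, 96208960 to 96209019, mm7). It read 11.94 to 13.23 in deficient channels and 8.72 to 10.58 in differentiating ones, apart from 12.54 on the array that stood apart. It fell by 2.27 ± 0.164 (adjusted p = 0.0067), and the reference-adjusted difference was -1.68 (adjusted p = 0.0198). Control line 6 alone read 12.37 to 12.78, while control lines 3 to 5 read 9.64 to 10.05. Tenm4, a teneurin of the cell surface, ran from 10.82 to 11.08 and then from 7.84 to 9.76, and fell by 1.75 ± 0.248 (adjusted p = 0.0116), with 1 of its 3 other probes in the same direction.

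H19 and Igf2, neighbouring imprinted genes, also ranked among these falls, but their deficient values turned on the array partner. Igf2, the growth factor, read 13.78 to 13.95 in the 3 deficient channels beside MEF and 10.71 to 10.81 in the 3 beside V6.5. Differentiating channels read 9.83 to 10.44 and MEF 17.13 to 17.16. Its fall was 2.19 ± 0.0882 (adjusted p = 0.00635), and on Cy3 channels alone, which leaves out those beside MEF, it was 0.6. H19, a noncoding RNA, fell by 1.88 ± 0.118 over all channels and by 0.51 on Cy3 channels (adjusted p = 0.0905). In all, 57 genes read over 1 log2 unit higher beside MEF than beside V6.5 in all 3 deficient clones, of which 56 were over 1 log2 unit higher in MEF than in V6.5 and 41 were called lower. Fbln5, a fibroblast matrix gene, fell by 1.24 over all channels but was higher by 0.58 on Cy3 channels.

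Over all channels, fibroblast and feeder genes did not move together. Of 42 tested, 9 rose, 8 fell and 25 did not pass, where 18.8% of all genes rose and 13.1% fell, with a median of 0.095, and in the deficient clones the channel beside MEF read higher by a median of 0.348. On Cy3 channels alone, without those beside MEF, 12 rose (12.3% of all genes did) and 1 fell (12%). There the list median was 0.382, against 0.05 over all genes. The mean log2 level of 5 defining fibroblast markers, Col1a1, Col1a2, Col3a1, Thy1 and Postn, ran from 11.07 to 12.4 in deficient and from 11.59 to 12.36 in differentiating channels, against 17.38 to 17.45 in MEF and 10.83 to 11.03 in V6.5. S100a4, a calcium-binding protein of fibroblasts, rose by 1.52 ± 0.112 (adjusted p = 0.00672), from 11.58 to 12.3 up to 13.14 to 13.85. Control lines carried more of these transcripts, 12.36 to 13.58 for the 5 markers. After reference adjustment 30 of the 42 genes were lower (9.13% of all genes were), with a median of -1.018. The part that feeder RNA has in these values was not tested.

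Among Dnmt3a, Dnmt3b, Dnmt1 and Dnmt3l, which genes passed the test between states turned on the array that stood apart. Dnmt3a ran from 9.12 to 9.92 in deficient and from 9.12 to 9.88 in differentiating channels. Its state difference was -0.16 ± 0.148 (adjusted p = 0.433), while without clone 8 the difference was -0.35 and was called. Of the 2 other Dnmt3a probes, 1 had the same direction and 1 was called in the opposite one. On the probe used, both states lay below the control lines, which read 10.91 to 11.36 apart from 9.78 on the array that stood apart. Dnmt3b differed by 0.19 ± 0.3 (adjusted p = 0.643); clone 8 was higher by 1.14 while A6 and B2 differed by -0.21 and -0.36. Deficient clones A6 and B2 averaged 13.44 and 13.6 for Dnmt3b, above V6.5 at 11.7 to 11.85. Where these genes were altered is not given in the labels, so a probe outside that part checks nothing. Dnmt3l, a cofactor without catalytic activity, fell by 0.33 ± 0.0682 (adjusted p = 0.0242), with a reference-adjusted difference of 0.8 (adjusted p = 0.014). Dnmt1, the maintenance enzyme, differed by -0.4 ± 0.124 and did not pass (adjusted p = 0.0586). Without the array that stood apart, Dnmt3l differed by -0.19 and was not called (adjusted p = 0.219), while Dnmt1 fell by 0.32 (adjusted p = 0.0312). Of 26 DNA and histone methylation genes, 8 fell (13.1% of all genes did) and 3 rose (18.8%). The methyl-binding family member Mbd3 fell by 0.94, the dioxygenase Tet2 by 0.89 and the corepressor Trim28 by 0.89.

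The counts for other lineages are read against the 18.8% of all genes that rose and the 13.1% that fell, and several lie near these shares. Of 28 mesoderm genes 6 rose and 1 fell, and Tbx6, Msx2 and Tal1 rose by 0.91, 0.95 and 0.6. The early mesoderm factors T and Mesp1 differed by 0.22 and -0.10 and did not pass. Of 25 neural genes 4 rose and 4 fell: the adhesion molecule Ncam1 fell by 1.11 (2 of its 7 other probes had the same direction and 1 was called in the opposite one), Tubb3 by 0.95 and Pax6 by 0.81, and Sox1 and Nes, at 0.12 each, did not pass. Of 18 trophoblast genes 2 rose and 3 fell, with Tfap2c lower by 1.19. Cdx2 fell by 0.45, and Elf5 and Hand1, at 0.04 and -0.44, did not pass. Of 35 Hox genes 7 rose and 2 fell, of 18 retinoid genes 5 rose and 4 fell, of 37 imprinted genes 5 rose and 6 fell, and of 29 mitotic genes 1 rose and 7 fell. After reference adjustment 9 of the mitotic genes were higher (8% of all genes were) and none lower (9.13%), with a median of 0.15. Top2a, a topoisomerase of dividing cells, stood at 0.41 (adjusted p = 0.0356) after a fall of 0.79 in the state difference. Among 19 immediate early and heat shock genes 4 rose and 6 fell, with Atf3 higher by 1.48 and Hsph1 lower by 0.79. Of 27 housekeeping genes 2 rose and 3 fell, with a median of 0.

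Across all genes the reference-adjusted fit called 1899 higher (8%) and 2167 lower (9.13%) of 23723 tested. Without the array that stood apart it called 1982 higher (8.35%) and 2647 lower (11.2%), and it called none with either A6 or B2 left out. Called in the same direction by both fits were 758 rises (3.2%) and 904 falls (3.81%). Opposite calls were made for 128 of the rises and 117 of the falls. Both fits use the differentiating channels and the deficient channels beside V6.5, so they are not independent. Among rises of at least 1 log2 unit, 104 of 197 were also called higher after reference adjustment, as were 8% of all genes. Of the 104, 92 had no day split. Lama1, Col4a1, Gata6, Ctsh, Foxa2, Sox17, Lamb1, Lamc1, Amn, Dab2 and Lgmn were among the 92, and Clu was called in both fits with a day split.

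**Figure D5:**
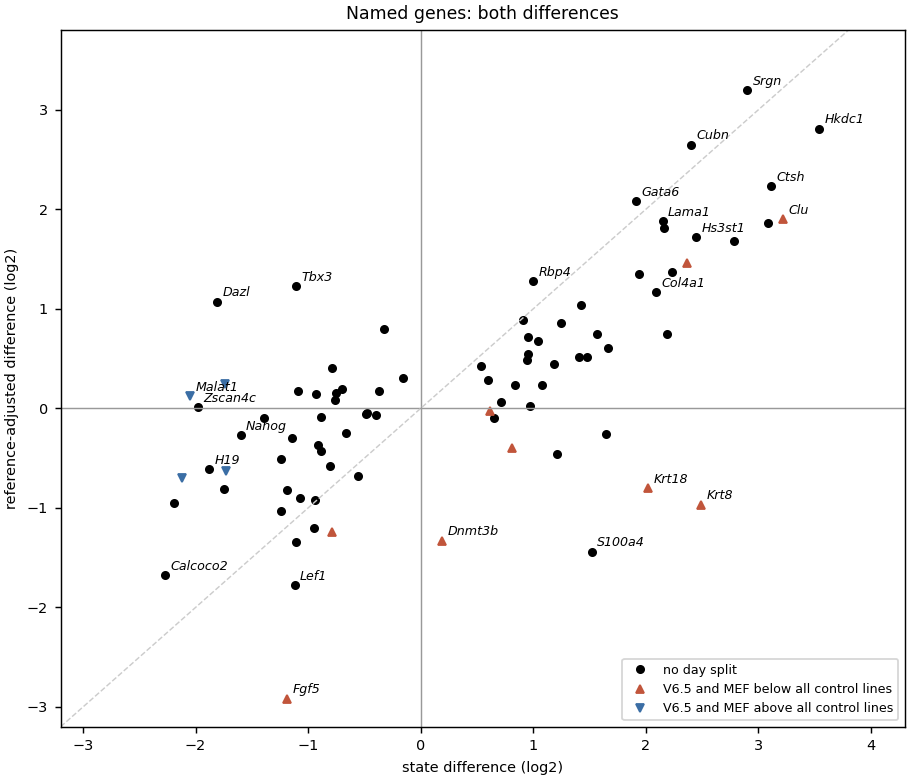
State difference (x axis, log2) against reference-adjusted difference (y axis, log2) for the 86 named genes; triangles have all V6.5 and MEF channels on the same side of the control line means, and the dashed line marks equal values. Endoderm genes such as Lama1 (2.15 and 1.88) and Gata6 (1.91 and 2.08) lie near the line, and Krt8 (2.49 and -0.97) and S100a4 (1.52 and -1.44) lie below 0.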

How the data were processed

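RNA of each clone was read on 2-colour Agilent arrays. Per the file headers, the authors deposited spot intensity values from Agilent's scanner software, with probe coordinates on mm7; the deposited value table holds log2 ratios whose scale and direction are not stated, and the submitters' processing notes name limma without a version. Here, background was corrected by normexp with an offset of 50, dyes were balanced by loess on each array, and arrays were scaled by Aquantile, with outlier-flagged spots left out. Of 41174 probes, 34966 were well above background in at least a 0.5 share of the channels of either state, and the brightest probe stood for a gene.

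Differences were tested with limma 3.58.1 in R 4.3.3 on 3 clone pairs, Benjamini-Hochberg adjusted over all genes and called under 0.05. The pairing rests on the same clone being read in both states. In the separate-channel fit that gave the dye term, missing values were imputed by the line's mean. Symbols came from RefSeq by accession for 14637 genes, by symbol for 2401 and by synonym for 1222, and 5497 kept the file's name.

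Named were 12 set genes, the 10 largest rises and falls with clones that did not overlap between states (6 each also without the day split), and up to 3 called members of each list; accession-like, clone and pseudogene names were left out of the ranking, the pseudogenes by a choice made after values were seen. Further list members are named to show what did and did not pass, and some members are not reported here. The members and lists were chosen with earlier results of these data known. The paired fit of the state difference was tested on simulated data, and the reference-adjusted fit and the normalization were not. P-values measure only the spread between 3 clones.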

Additional observations from a re-analysis of the deposited data

Results flagged for a closer look

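Of 60 groups of samples checked for the 12 set genes, 11 held a value far from the others, where chance gives about 1 in 20. Of these, 7 lay on, or took in, the array of differentiating clone 8 beside control line 5. Its clone 8 channel stood apart for Col4a1 at 13.69 (nearest 14.6), Gata6 at 11.54 (nearest 13.07), Ctsh at 12.74 (nearest 14.73), Dnmt1 at 11.14 (nearest 12.13) and Dnmt3l at 13.47 (nearest 15.06). Through its other channel, the mean of control line 5 stood apart for Lama1 at 10.51 (nearest line 9.77) and for Clu at 12.28 (nearest line 11.76).

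The remaining 4 lay elsewhere. Dnmt3a read 9.88 in differentiating A6 beside control line 3 (nearest 9.36). The channels of that array correlated at 0.994, against 0.983 to 0.986 on the other arrays of differentiating A6. Dnmt3l read 15.66 in the only Cy5 channel of differentiating A6, beside control line 5 (nearest 15.93). Nanog read 12.48 in the only Cy5 channel of differentiating B2, beside control line 4 (nearest 12.17), and control line 6 averaged 13.03 for Nanog (nearest line 12.45). Dnmt3b moved in opposite directions among clones, by 1.14 in clone 8 and by -0.21 in A6 and -0.36 in B2; the difference between clones was not tested.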

How the results depend on the processing

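Over 86 named genes and 15 alternative settings, 1074 values kept direction and side of the threshold, 202 no longer passed, 8 newly passed and 6 reversed; the causes were not tested. The reversals were Dnmt3b at -0.13 without normalization between arrays, -0.19 on the scanner software's processed signals and from -0.28 to 0.46 with 1 clone left out (lowest without clone 8), Hoxc9 at -0.12 without normalization, Dnmt3a from -0.35 to 0.02 with 1 clone left out (highest without B2), and Fbln5 at 0.58 on Cy3 channels only. For the state difference, no normalization between arrays called 0 genes (0 higher, 0 lower; 7071 at an unadjusted p under 0.05). Processed signals called 10983, of which 5547 lower and 49.5% higher, and the separate-channel fit 12831 (8123 higher, 4708 lower). Cy3 channels only, chosen after seeing the data, called 2908 higher and 2845 lower, or 50.5% higher. Leaving out 1 clone gave 14 to 9914 called genes, 13 to 5728 higher and 1 to 4186 lower. The fit with no replicate block called 6494, of which 5995 were shared with the paired fit. For the reference-adjusted difference, quantile normalization called 6745 (3486 higher, 3259 lower), processed signals 6115 (3193 higher) and no background correction 7701 (4296 higher, 3405 lower), and on the deposited ratios 7731 genes were called (4211 higher, 3520 lower). Leaving out 1 clone gave 0 to 7082 called, 0 to 2890 higher and 0 to 4192 lower; limma's unadjusted p was under 0.05 for 5645 genes without A6 and 4983 without B2. With V6.5 channels alone, 4148 called genes had a day split, against 2590. The number of arrays and clones limits the precision, and 1812 genes were not above background in the deficient state.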
